A study of Mus musculus with 12 samples.

Results

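Genes of retinoid transport, retinoic acid synthesis and breakdown, and retinoid receptors, 10 of the 35976 genes in the count table, were followed across 3 mouse leukemias and normal marrow. They were Stra6, Crabp1, Rdh10, Aldh1a2, Cyp26b1, Rara, Rarb, Rarg, Rxra and Rxrb. The 10 were listed by name and selected on their measured counts in these 4 groups, since earlier results of the same libraries were known. Their levels and fold changes are therefore given as a description and carry no test. Where a call on any of them is given, it is no evidence about that gene. RNA-seq was done on 3 libraries from each of 4 groups. BN1 leukemia cells carried BRD9-NUTM1, MA9 cells carried MLL-AF9 and ME cells carried MLL-ENL, and the marrow cells of B6_WT (WT) carried no labelled fusion. BRD9-NUTM1 joins a chromatin remodeller subunit to a testis protein, and MLL-AF9 and MLL-ENL join the histone methyltransferase MLL to a partner from the transcription elongation machinery. Every group was of C57BL/6 strain, from bone marrow, sorted as CD45.2+ cells and untreated, and the CD45.2(+) genotype was common to all of them, with the fusion as the labelled difference. The MA9 libraries also differed from the rest in transcripts of the Y chromosome, as given beside Stra6. The labels give no age, no route by which the fusions were introduced, and no statement that the libraries came from separate animals. The p-values below therefore measure the spread between these libraries, which may be technical.

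Retinol reaches cells on a carrier protein and can enter through the membrane receptor STRA6. Retinol dehydrogenases such as RDH10 oxidise it to retinal, retinaldehyde dehydrogenases such as ALDH1A2 make retinoic acid from that, CRABP proteins bind the acid in the cytoplasm, and CYP26 enzymes break it down. Retinoic acid binds the RAR receptors, which sit on DNA with an RXR partner, bind corepressors without ligand and recruit coactivators with it. In marrow the pathway is best known for granulocyte maturation, and the PML-RARA fusion of human acute promyelocytic leukemia is the target of retinoic acid treatment.

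RAR-RXR pairs bind direct repeats of a 6-base element with 1, 2 or 5 bases between the copies. The 250 bases before the annotated starts were searched on both strands for such repeats of AGGTCA or AGTTCA or GGGTCA or GGTTCA, each element being allowed in either place. Promoters from RefSeq (GRCm38.p6) were found for 9 of the 10 genes, as 18 windows, the exception being Rdh10. A repeat was found in 1 of the 18 windows, that of Rarb, and AGGTCA alone in 2 of the 18. Of all 32851 promoters of that length, 0.426% held a repeat with any of the spacings, 0.0883% one with 5 bases between, and 14% the single element AGGTCA. Among 55 other retinoid pathway genes, 2 of 73 windows held a repeat, those of Cyp26a1, which breaks down retinoic acid, and Bco1, which cleaves carotene to retinal. These 3 windows are shown because Rarb and Cyp26a1 are textbook targets of retinoic acid and because all 3 hold the element. The start of Stra6 is shown beside them because its transcript varied most between the groups. Capitals mark the repeat, each window ends at the base before the start, and each reads along the gene.
Rarb, chr14:16575477-16575726, minus strand: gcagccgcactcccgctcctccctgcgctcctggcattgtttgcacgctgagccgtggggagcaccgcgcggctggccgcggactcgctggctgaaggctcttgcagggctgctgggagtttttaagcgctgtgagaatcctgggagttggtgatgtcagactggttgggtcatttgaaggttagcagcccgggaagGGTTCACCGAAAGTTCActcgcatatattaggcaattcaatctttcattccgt
Cyp26a1, chr19:37697558-37697807, plus strand: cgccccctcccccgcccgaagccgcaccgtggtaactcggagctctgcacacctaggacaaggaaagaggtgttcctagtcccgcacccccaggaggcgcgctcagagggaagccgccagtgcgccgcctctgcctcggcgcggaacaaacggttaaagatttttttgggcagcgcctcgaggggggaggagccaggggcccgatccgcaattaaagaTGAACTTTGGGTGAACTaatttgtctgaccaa
Bco1, chr8:117095615-117095864, plus strand: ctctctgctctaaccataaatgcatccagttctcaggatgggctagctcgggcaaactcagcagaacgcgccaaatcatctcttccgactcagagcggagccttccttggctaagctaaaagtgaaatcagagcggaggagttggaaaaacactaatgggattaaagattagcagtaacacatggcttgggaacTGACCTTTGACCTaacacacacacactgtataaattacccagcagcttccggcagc
Stra6, first of 4 starts, chr9:58128838-58129087, plus strand: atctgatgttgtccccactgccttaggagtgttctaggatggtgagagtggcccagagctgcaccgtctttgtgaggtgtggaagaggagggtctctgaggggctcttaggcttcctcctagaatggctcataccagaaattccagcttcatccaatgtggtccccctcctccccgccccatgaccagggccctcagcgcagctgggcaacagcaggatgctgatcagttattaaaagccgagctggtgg
The Rarb repeat is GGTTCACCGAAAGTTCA at positions -53 to -37 from the start, with 5 bases between the elements. That of Cyp26a1 is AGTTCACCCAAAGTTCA, read on the opposite strand at positions -32 to -16, and that of Bco1 is AGGTCAAAGGTCA, also on the opposite strand, at positions -56 to -44 with 1 base between. A match is a match of letters and not evidence of binding, and a window without one lacks only these letters. The levels of all 3 genes are given below, and each was under 1 CPM in every library.

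The libraries held 18292636 to 25732049 counts. Of the 10 genes, 9 had at least 1 count and 7 passed the filter on low counts. Levels are given as CPM, the counts per 1000000 counts of a library after scaling between libraries. Levels of different genes are compared only as RPKM, which is CPM divided by the exon length in kilobases. Ptprc, which encodes the CD45 antigen used for sorting, was present in all libraries, at 473 to 512 CPM in BN1, 360 to 415 in MA9, 317 to 334 in ME and 941 to 1086 in WT. Library 3 of ME stood apart in that the transcript LOC101056014 took 1.46% of its counts, against 0.0321% to 0.0596% in the others. For BN1 against WT, 4 of the 7 genes that passed the filter were called at an adjusted p under 0.05 (edgeR), 1 higher and 3 lower, where 79.2% of all 15334 genes tested were called, 38.4% higher and 40.8% lower. For MA9 against WT, 6 of the 7 were called, 3 higher and 3 lower, where 80.1% of all genes were, 39.3% higher and 40.8% lower. For ME against WT, 5 of the 7 were called, 2 higher and 3 lower, where 79.2% of all genes were, 39.0% higher and 40.2% lower. For BN1 against MA9, 5 were called, 3 higher and 2 lower, where 67.7% of all genes were, 32.8% higher and 34.9% lower. For BN1 against ME, 4 were called, 3 higher and 1 lower, where 64.7% of all genes were, 31.8% higher and 33.0% lower. For MA9 against ME, 3 were called, 2 higher and 1 lower, where 40.6% of all genes were, 20.2% higher and 20.4% lower. The libraries of the 2 groups did not overlap for 4 of the 7 genes in BN1 against WT, 6 in MA9 against WT and 5 in ME against WT, where 80.3%, 80.9% and 79.8% of all genes did not overlap. Between leukemias this held for 5 genes in BN1 against MA9, 4 in BN1 against ME and 3 in MA9 against ME, where 70.1%, 66.9% and 48.7% of all genes did not overlap. The genes were chosen with these contrasts known, and the comparisons against WT share the same 3 WT libraries, so nothing is read from these counts.

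**Figure D1:**
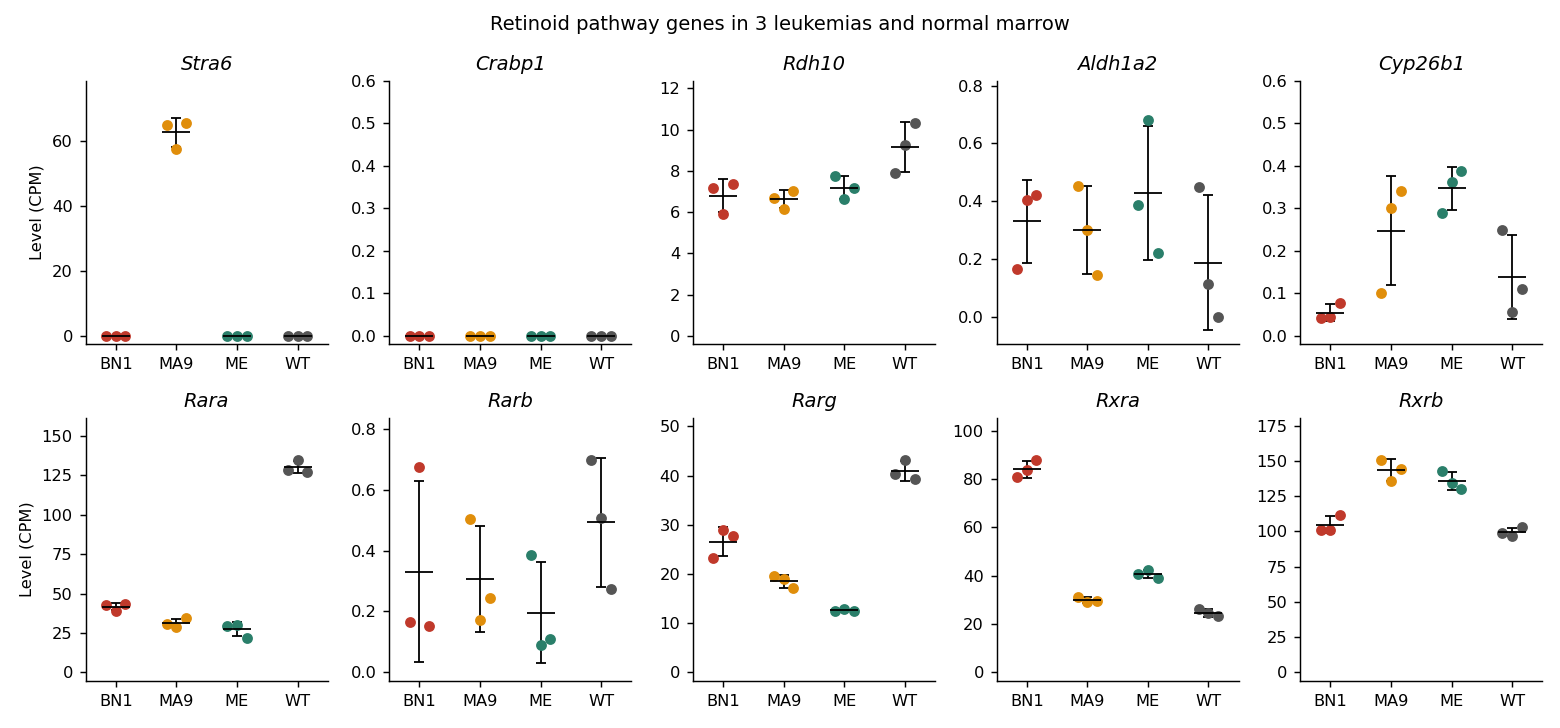
Level of each of the 10 retinoid genes in CPM by group (BN1, MA9, ME, WT), with 1 point per library and a bar at the mean ± SD of 3 libraries. Stra6 is at 57.6 to 65.4 CPM in MA9 and at 0 elsewhere, Rara and Rarg are highest in WT, Rxra is highest in BN1, and Rxrb is higher in MA9 and ME than in the other groups.

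Stra6, the membrane receptor for retinol-binding protein, lies at chr9:58063788-58153996 on the plus strand (GENCODE annotation of GRCm38). It had 1294, 1336 and 1347 counts in the 3 MA9 libraries and 65.0, 57.6 and 65.4 CPM. No count was seen in the 3 libraries of BN1, of ME or of WT. With a floor of 3 counts over a group, the MA9 level was at least 1166-fold higher than WT and at least 1265-fold higher than ME, and BN1 was at least 1513-fold lower than MA9. Per length, Stra6 reached 10.8 ± 0.752 RPKM in MA9 (SD, n = 3), against 7.19 ± 0.645 RPKM for Rara and 4.34 ± 0.297 RPKM for Rarg in the same libraries.

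The genes around Stra6 were listed to see whether they were also high in MA9. Within 250 kb there were 10 protein-coding genes, of which 7 passed the filter. Gaps run from the ends of the GENCODE gene, which begins upstream of the RefSeq starts searched above. All 7 were lower in MA9, in BN1 and in ME than in WT (edgeR, adjusted p under 0.05). Of all genes, 40.8% were lower in MA9, 40.8% in BN1 and 40.2% in ME. Islr2, Sema7a and Cyp11a1, with 97, 1113 and 547 counts over WT, passed the filter through WT alone. Their lower level in the leukemias was thus fixed by the filter. Only Pml, Stoml1, Ubl7 and Arid3b can be set beside those shares. For MA9 against ME, 2 of the 7 differed, both lower in MA9, where 40.6% of all genes were called and 20.4% were lower. Pml, whose protein organises nuclear bodies and which lies 64.1 kb downstream, had 85.8 ± 5.29 CPM in MA9 and 114 ± 3.53 CPM in ME (SD, n = 3 each), a log2 fold change of -0.41 ± 0.05 (SE; edgeR adjusted p = 1.5e-07). Arid3b, a DNA-binding protein gene 227.0 kb upstream, had 14.2 ± 1.53 CPM in MA9 and 21.4 ± 0.576 CPM in ME, a log2 fold change of -0.60 ± 0.08 (edgeR adjusted p = 8.8e-07). For BN1 against MA9, 2 of the 7 were higher and 2 lower in BN1, where 32.8% of all genes were higher and 34.9% lower. Lower in BN1, and so higher in MA9, were Arid3b (log2 fold change -0.57 ± 0.09, edgeR adjusted p = 2.8e-06) and Ubl7, a ubiquitin-like protein gene 133.8 kb upstream, with 41.4 ± 3.39 CPM in BN1 and 52.1 ± 1.36 CPM in MA9 (-0.33 ± 0.06, edgeR adjusted p = 5.7e-05). Higher in BN1 were Sema7a, a semaphorin gene with 16 counts over BN1 and 0 over MA9 (edgeR adjusted p = 0.00048), and Islr2, with 6 counts over BN1 and 0 over MA9 (edgeR adjusted p = 0.037). The Islr2 call was lost without BN1 replicate 1 or 2 or any single MA9 library, with adjusted p of 0.058 to 0.16. The gene closest downstream, Islr at 2.3 kb, had 7 counts over the MA9 libraries and 12 over the WT libraries, and was without counts in BN1 and ME. The closest one upstream, Cyp11a1 at 36.8 kb, which encodes the enzyme that starts steroid synthesis, had no count in any leukemia library and 9.75 ± 0.317 CPM in WT. Ccdc33, which overlaps Stra6 on the opposite strand without sharing exons, had 2 counts over BN1, 0 over MA9, 2 over ME and 1 over WT.

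**Figure D2:**
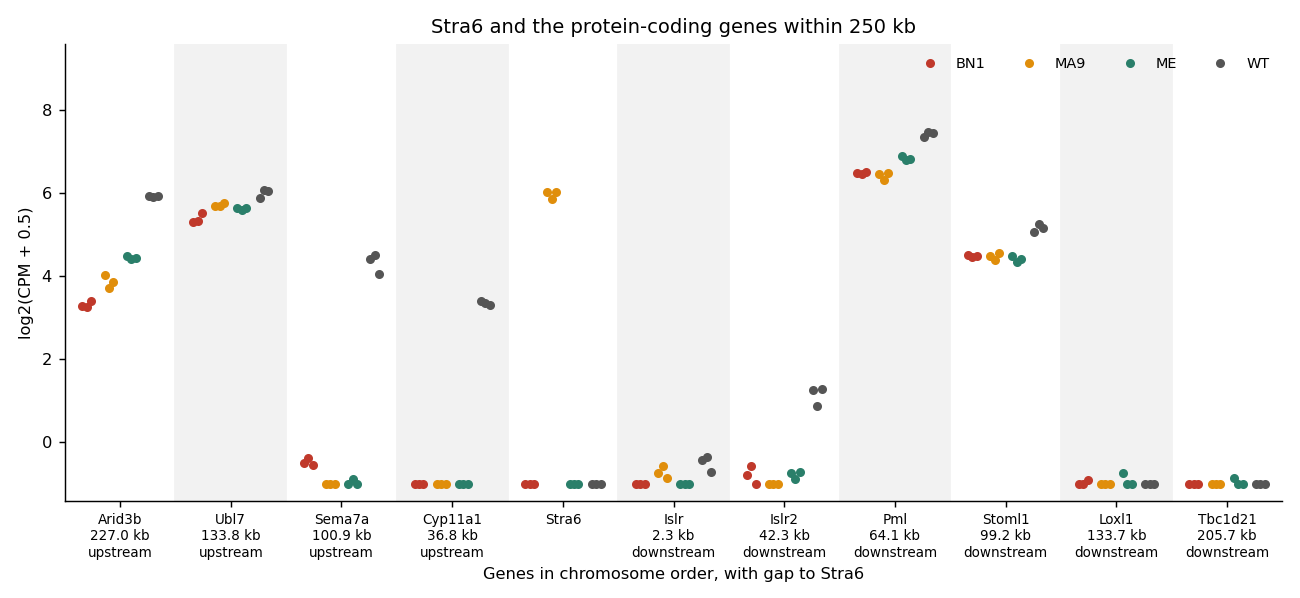
Level as log2(CPM + 0.5) of Stra6 and the protein-coding genes within 250 kb, in chromosome order with the gap to Stra6 in kb, with points for the libraries of BN1, MA9, ME and WT. Stra6 is high in the MA9 libraries alone, and each of the 7 neighbours that passed the filter is lower in the leukemias than in WT. Islr2, Sema7a and Cyp11a1 passed the filter through WT alone.

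The genes most like Stra6 over the 12 libraries, by Pearson's r of log2(CPM + 0.5) among 10812 other genes with at least 5 CPM in their highest group, were Ppp1r14c, Kdm5d, Uty, Mtcl1 and Ddx3y, with r of 0.9976 to 0.9999. Ppp1r14c encodes an inhibitor of a protein phosphatase and averaged 29.4 CPM in MA9, with no count in the other groups. Kdm5d, Uty and Ddx3y lie on the Y chromosome. Ddx3y averaged 0 CPM in BN1, 56.0 CPM in MA9, 0.178 CPM in ME and 0 CPM in WT, and Kdm5d averaged 0 CPM in BN1, 29.4 CPM in MA9, 0.0624 CPM in ME and 0 CPM in WT. Transcripts of the Y chromosome thus set the MA9 libraries apart together with the fusion, and in every comparison with MA9 the fusion and the presence of a Y chromosome in the cells cannot be told apart. These r values rest on the step between the MA9 libraries and the other 9, and serve only as a description.

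Crabp1, which encodes a cytoplasmic retinoic acid binding protein, had no count in any of the 12 libraries, which allows up to 0.0118 CPM over all of them from counting error. Aldh1a2, the retinaldehyde dehydrogenase of the early embryo, had 24 counts over the BN1 libraries, 19 over MA9, 27 over ME and 11 over WT. Its level was 0.330 ± 0.144 CPM in BN1, 0.300 ± 0.153 CPM in MA9, 0.430 ± 0.232 CPM in ME and 0.187 ± 0.233 CPM in WT (SD, n = 3 each), so all groups overlapped. Cyp26b1, a retinoic acid hydroxylase, had 4 counts over BN1, 16 over MA9, 21 over ME and 8 over WT, and averaged 0.0542 ± 0.0194 CPM in BN1, 0.247 ± 0.129 CPM in MA9, 0.347 ± 0.0512 CPM in ME and 0.138 ± 0.0993 CPM in WT. The BN1 libraries lay below those of MA9 and ME, and WT overlapped with BN1 and MA9. Neither Aldh1a2 nor Cyp26b1 passed the filter on low counts.

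Rdh10, the retinol dehydrogenase essential in the mouse embryo, was detected in all libraries. It had 7.15, 5.89 and 7.35 CPM in BN1, 6.68, 6.17 and 7.04 CPM in MA9, 7.73, 6.62 and 7.17 CPM in ME, and 7.91, 9.28 and 10.3 CPM in WT. Every leukemia library lay below every WT library, and the leukemias overlapped with each other. The log2 fold change against WT was -0.42 ± 0.13 in BN1, -0.47 ± 0.14 in MA9 and -0.35 ± 0.13 in ME (SE). The ME value became -0.26 without WT replicate 3 and -0.29 without ME replicate 2, and was then no longer called. The genes most like it were Prox2, Fbrs, Usp39, Rnf40 and Msh5, with r of 0.905 to 0.920.

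Rara, the RAR of the promyelocytic leukemia fusion and the most abundant RAR in all 4 groups, was lower in all 3 leukemias than in WT. It had 42.5, 39.2 and 43.7 CPM in BN1, 30.7, 29.0 and 34.5 CPM in MA9, 29.7, 30.0 and 22.1 CPM in ME, and 129, 135 and 127 CPM in WT. All leukemia libraries lay below all WT libraries, BN1 lay above both MLL leukemias, and MA9 and ME overlapped. The log2 fold change against WT was -1.64 ± 0.08 in BN1, -2.05 ± 0.08 in MA9 and -2.25 ± 0.08 in ME (SE). BN1 was higher than MA9 by 0.42 ± 0.08 and higher than ME by 0.61 ± 0.09 on the log2 scale. The most similar genes were Rgag4, Clcf1, Zcchc6, Rasgrp4 and Galnt10, with r of 0.992 to 0.995. Rasgrp4, a myeloid activator of Ras, averaged 94.6 CPM in BN1, 58.6 CPM in MA9, 56.0 CPM in ME and 366.7 CPM in WT.

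Rarg, the other RAR detected above trace level, was ordered in the same way, with all 4 groups apart. It had 23.3, 28.9 and 27.6 CPM in BN1, 19.5, 18.9 and 17.1 CPM in MA9, 12.5, 12.96 and 12.5 CPM in ME, and 40.3, 43.1 and 39.3 CPM in WT. No library of one group fell in the range of another, with WT highest, then BN1, MA9 and ME. The log2 fold change against WT was -0.62 ± 0.08 in BN1, -1.14 ± 0.08 in MA9 and -1.69 ± 0.09 in ME (SE). Its most similar genes were Dhx57, Itgb2l, S100a9, Aff3 and L1cam, with r of 0.984 to 0.990. S100a9, a calcium-binding protein abundant in neutrophils, averaged 1111 CPM in BN1, 129.4 CPM in MA9, 26.4 CPM in ME and 16160 CPM in WT.

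The sum of neutrophil markers had the same order of groups as Rarg. The level over 8 markers (Ltf, Ngp, Camp, Mmp8, Mmp9, Retnlg, Ly6g and Cxcr2) was 2448 to 2480 CPM in BN1, 308 to 311 CPM in MA9, 149 to 152 CPM in ME and 32272 to 32366 CPM in WT. All 8 were lower in each leukemia than in WT (edgeR, adjusted p under 0.05), and no marker of the list was at 0 in any group. Single markers did not all follow that order: for BN1 against ME 7 were higher and 1 was not called, and for MA9 against ME 6 were higher, 1 was lower and 1 was not called. The lower one was Mmp8, a collagenase of neutrophil granules, with 122 ± 5.51 CPM in BN1, 15.7 ± 1.83 CPM in MA9, 119 ± 1.83 CPM in ME and 1568 ± 127 CPM in WT (SD, n = 3 each), so it made up most of the ME sum. The part of these cells in the Rara and Rarg levels was not tested. In bulk RNA, fewer cells of a type and less RNA per cell cannot be told apart.

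Rarb, the RAR that retinoic acid itself induces in many cells, had 82 counts in all. It had 0.164, 0.674 and 0.153 CPM in BN1, 0.502, 0.173 and 0.243 CPM in MA9, 0.387, 0.0906 and 0.111 CPM in ME, and 0.697, 0.506 and 0.275 CPM in WT. All groups overlapped, and the log2 fold change against WT was -0.63 ± 0.59 in BN1, -0.72 ± 0.61 in MA9 and -1.31 ± 0.67 in ME (SE). Single libraries decided these values. BN1 against WT became -1.60 without BN1 replicate 2, and ME against WT became -1.59 without WT replicate 3 and -2.24 without ME replicate 1. Rarb exons overlap those of Top2b on the opposite strand over 1793 bp, and Top2b averaged 162 CPM in BN1, 211 CPM in MA9, 206 CPM in ME and 217 CPM in WT. A stranded kit was used, but the strand setting of the counting is unknown here, so the Rarb counts are uncertain. Its most similar genes reached an r of only 0.648 to 0.730.

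Rxra, the RXR that pairs with many nuclear receptors in myeloid cells, was highest in BN1. It had 80.8, 83.6 and 87.7 CPM in BN1, 31.3, 29.2 and 29.4 CPM in MA9, 40.7, 42.4 and 39.2 CPM in ME, and 26.2, 24.5 and 23.1 CPM in WT. The 4 groups did not overlap, with ME, MA9 and WT following BN1 in that order. The log2 fold change against WT was 1.77 ± 0.06 in BN1, 0.28 ± 0.07 in MA9 and 0.73 ± 0.07 in ME (SE). BN1 was higher than MA9 by 1.49 ± 0.06 and higher than ME by 1.04 ± 0.06 on the log2 scale. The most similar genes were Scd2, F13a1, Txndc9, Arhgap31 and Fgl2, with r of 0.990 to 0.995. F13a1, a coagulation factor subunit made by monocytes, averaged 3431 CPM in BN1, 875 CPM in MA9, 1395 CPM in ME and 780.0 CPM in WT.

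Monocyte and macrophage markers, of which F13a1 is one, had their sum in that order too. Over 8 markers (Csf1r, Ccr2, Ly6c2, Adgre1, F13a1, Cd68, C1qa and C1qb) it was 6609 to 6961 CPM in BN1, 2727 to 2977 CPM in MA9, 3463 to 3803 CPM in ME and 2377 to 2726 CPM in WT. F13a1 and Ly6c2 made up most of this sum, and no other marker of the list had its order of groups. Csf1r, for example, averaged 572 CPM in BN1, 155 CPM in MA9, 199 CPM in ME and 309 CPM in WT. Of the 8, 6 were higher and 2 lower in BN1 than in WT, 3 higher and 4 lower in MA9, and 2 higher and 6 lower in ME (edgeR, adjusted p under 0.05), and no marker was at 0. Their part in the Rxra level was not tested.

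Rxrb, the RXR expressed in most tissues, was the most abundant of the 10 genes in the leukemias per length, at 26.3 ± 1.51 RPKM in BN1, 36.1 ± 1.89 RPKM in MA9 and 34.2 ± 1.61 RPKM in ME, against 25.1 ± 0.744 RPKM in WT, where Rara was higher at 29.8 ± 0.886 RPKM (SD, n = 3 each). It had 101, 101 and 112 CPM in BN1, 151, 136 and 144 CPM in MA9, 143, 134 and 130.3 CPM in ME, and 98.9, 97.1 and 103 CPM in WT. MA9 and ME lay above BN1 and WT and overlapped with each other, and BN1 and WT also overlapped. The log2 fold change against WT was 0.07 ± 0.05 in BN1, 0.53 ± 0.05 in MA9 and 0.45 ± 0.05 in ME (SE). The most similar genes, Utp18, Naglu, Uqcr10, Sars2 and Pcbp1, had r of 0.980 to 0.994.

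Sums over each receptor family show how the make-up differed. The RAR sum (Rara, Rarb and Rarg) was 15.9 ± 0.648 RPKM in BN1, 11.6 ± 0.438 RPKM in MA9, 9.26 ± 1.06 RPKM in ME and 39.5 ± 1.36 RPKM in WT (SD, n = 3 each). Rara made up 60.3 ± 3.72% of it in BN1, 62.0 ± 3.55% in MA9, 67.2 ± 3.58% in ME and 75.5 ± 0.376% in WT. The RXR sum (Rxra, Rxrb and Rxrg, the last with 3 counts in all) was 41.7 ± 2.12 RPKM in BN1, 41.6 ± 2.08 RPKM in MA9, 41.7 ± 1.73 RPKM in ME and 29.6 ± 0.601 RPKM in WT. The leukemias thus overlapped in RXR sum and lay above WT. They differed in the share of Rxra in it, which was 36.9 ± 0.576% in BN1, 13.2 ± 0.310% in MA9, 17.9 ± 0.760% in ME and 15.2 ± 1.06% in WT. RXR transcripts exceeded RAR transcripts in every leukemia, and RAR transcripts exceeded RXR transcripts in WT.

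**Figure D3:**
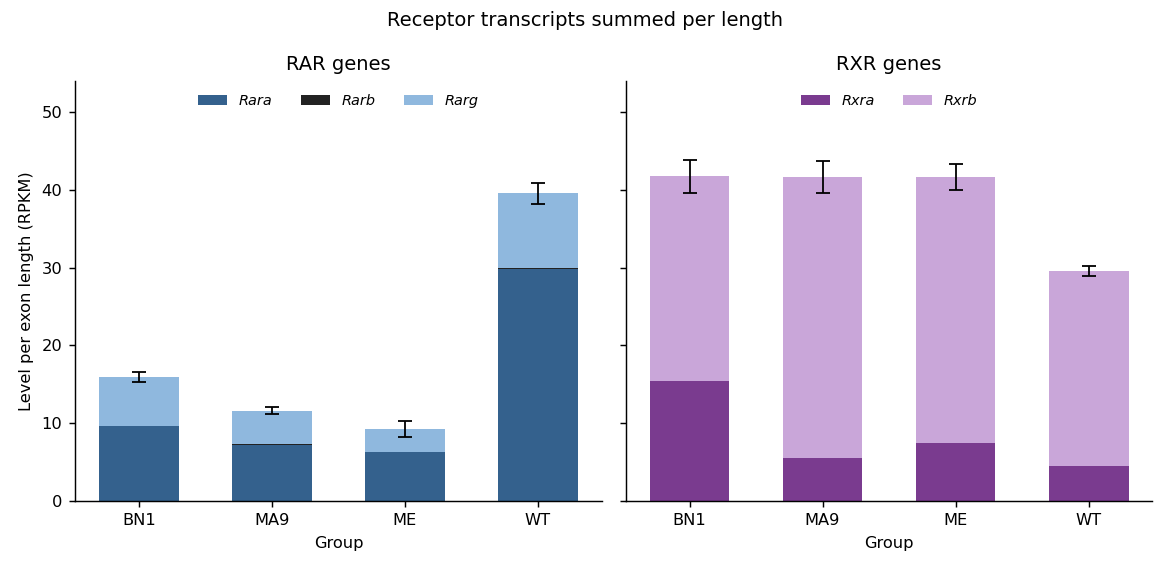
Stacked receptor levels in RPKM by group (BN1, MA9, ME, WT), RAR genes and RXR genes in separate panels, with the SD of the sum over 3 libraries. The RAR sum is 15.9, 11.6, 9.26 and 39.5 RPKM in that order of groups, and the RXR sum is 41.7, 41.6, 41.7 and 29.6 RPKM, with the largest Rxra part in BN1.

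The rest of the pathway was read from 73 other genes in 6 role lists, of which 48 passed the filter. For BN1 against WT, 40 of the 48 were called, 16 higher and 24 lower, which is 83.3% beside 79.2% of all genes, and their median log2 fold change was -0.11 beside -0.01 for all genes. For MA9 against WT 43 were called, 15 higher and 28 lower (89.6% beside 80.1%), with a median of -0.48 beside -0.01. For ME against WT 40 were called, 15 higher and 25 lower (83.3% beside 79.2%), with a median of -0.29 beside -0.01. Between leukemias 35 were called for BN1 against MA9 (21 higher, 14 lower), 31 for BN1 against ME (17 higher, 14 lower) and 25 for MA9 against ME (11 higher, 14 lower). These are 72.9%, 64.6% and 52.1% of the list, beside 67.7%, 64.7% and 40.6% of all genes.

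In retinol transport and storage, 4 of 10 genes passed the filter, and 3 of the 4 fell in each leukemia. Among these were Fabp5, a fatty acid binding protein that can carry retinoic acid, and Dgat1, an acyltransferase that can esterify retinol. Dgat1 had 64.9 ± 2.81 CPM in BN1, 76.6 ± 3.29 CPM in MA9, 57.2 ± 3.40 CPM in ME and 203 ± 5.57 CPM in WT (SD, n = 3 each), with log2 fold changes against WT of -1.64 ± 0.05 (SE), -1.41 ± 0.05 and -1.83 ± 0.05 (edgeR adjusted p of 5.9e-21, 1.9e-19 and 8.3e-22). Fabp5 had 1.57 ± 0.437 CPM in BN1, 8.22 ± 0.190 CPM in MA9, 2.68 ± 0.580 CPM in ME and 22.5 ± 1.19 CPM in WT. Its drop against WT was smallest in MA9 (-1.45 ± 0.13, adjusted p = 3.4e-11), and MA9 was higher than ME by 1.60 ± 0.16 (edgeR adjusted p = 2.5e-09). Stra6l, the relative of Stra6 that also moves retinol across membranes, had 2.07 ± 0.243 CPM in BN1, 0.795 ± 0.129 CPM in MA9, 0.364 ± 0.273 CPM in ME and 0.294 ± 0.261 CPM in WT. It rose in BN1 by 2.75 ± 0.47 and in MA9 by 1.39 ± 0.54 on the log2 scale (edgeR adjusted p of 6.6e-06 and 0.022), and the ME value was 0.20 ± 0.64 (adjusted p = 0.78). The MA9 value became 0.84 without WT replicate 2 and 1.28 without MA9 replicate 2, and was then no longer called (adjusted p of 0.12 and 0.057). BN1 was higher than MA9 by 1.37 ± 0.38 (edgeR adjusted p = 0.0026).

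Among retinol and retinal oxidoreductases, 12 of 20 passed the filter. Against WT, 4 rose and 5 fell in BN1, 7 rose and 5 fell in MA9, and 7 rose and 4 fell in ME. Dhrs3, a retinal reductase that retinoic acid induces in many cells, had 75.2 ± 0.660 CPM in BN1, 42.9 ± 1.46 CPM in MA9, 38.0 ± 1.03 CPM in ME and 25.3 ± 0.766 CPM in WT. It rose by 1.57 ± 0.06, 0.76 ± 0.06 and 0.59 ± 0.06 on the log2 scale (edgeR adjusted p of 2.6e-19, 8.3e-12 and 2.2e-09). Bco1, whose promoter is printed above, had 9 counts over BN1, 40 over MA9, 24 over ME and 4 over WT, or 0.126 ± 0.147 CPM in BN1, 0.628 ± 0.0905 CPM in MA9, 0.386 ± 0.143 CPM in ME and 0.0685 ± 0.0754 CPM in WT. Bco1 passed the filter through the MA9 libraries, which favoured a higher level there in advance. Its log2 fold change against WT was 3.04 ± 0.76 in MA9, given without a test. In ME it was 2.37 ± 0.83 (edgeR adjusted p = 0.011), and in BN1 it was 0.75 ± 1.01 (adjusted p = 0.50). The ME value became 1.84 (adjusted p = 0.059) without WT replicate 3. Rdh12 and Dhrs9, both retinol dehydrogenases, fell in all 3 leukemias. Rdh12 had 12.6 ± 0.793 CPM in BN1, 8.11 ± 0.526 CPM in MA9, 12.5 ± 0.346 CPM in ME and 72.9 ± 3.86 CPM in WT, and its log2 fold change was -2.53 ± 0.08 in BN1, -3.17 ± 0.08 in MA9 and -2.54 ± 0.08 in ME (edgeR adjusted p of 1e-21, 3.1e-23 and 1.5e-21). Dhrs9 had 10.9 ± 0.0881 CPM in BN1, 13.6 ± 0.421 CPM in MA9, 8.35 ± 0.271 CPM in ME and 49.3 ± 2.40 CPM in WT.

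Of the 6 other enzymes of retinoic acid synthesis and breakdown, Aldh1a1 and Aldh1a7 passed the filter and both fell in every leukemia. Aldh1a1, a retinaldehyde dehydrogenase, had 0 counts over BN1, 0 over MA9, 3 over ME and 2401 over WT, which is 43.0 ± 4.17 CPM in WT. Its level was at least 1038-fold lower in BN1 and at least 910-fold lower in MA9 than in WT at the floor of 3 counts over a group, and the ME to WT ratio was 0.00115 with a counting interval of 0.000237 to 0.00337 (edgeR adjusted p of 1.3e-19, 2.4e-19 and 4e-19). Aldh1a1 and Aldh1a7 are close copies, so the split of reads between them is uncertain. Markers of several mature lineages were lower in the leukemias as well. The 8 erythroid markers summed to 126 to 153 CPM in BN1, 115 to 122 CPM in MA9, 78.0 to 102 CPM in ME and 16716 to 21826 CPM in WT, with Car1 at 0 in all 3 leukemias. The 8 B cell markers summed to 0.944 to 1.22 CPM in BN1, 18.8 to 19.8 CPM in MA9, 1.89 to 2.17 CPM in ME and 1090 to 1237 CPM in WT, with Ms4a1 among those at 0 in MA9 and ME, Ebf1 at 0 in MA9 and Pax5 at 0 in ME. Their part in the Aldh1a1 level was not tested. Cyp26a1, whose promoter is printed above, had 1 count over BN1, 6 over MA9, 21 over ME and 15 over WT and was not tested.

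All 14 receptor cofactors passed the filter. Against WT, 4 rose and 7 fell in BN1, 3 rose and 10 fell in MA9, and 3 rose and 9 fell in ME. Med1, the Mediator subunit that contacts nuclear receptors, had 244 ± 2.65 CPM in BN1, 81.5 ± 0.746 CPM in MA9, 70.7 ± 0.349 CPM in ME and 80.4 ± 2.59 CPM in WT, and rose in BN1 by 1.60 ± 0.05 on the log2 scale (edgeR adjusted p = 2.1e-22). BN1 was also higher than MA9 by 1.58 ± 0.04 and higher than ME by 1.79 ± 0.05 (adjusted p of 7.2e-22 and 7.6e-23). Nrip1, a corepressor that binds liganded receptors, had 0.968 ± 0.254 CPM in BN1, 5.32 ± 0.591 CPM in MA9, 1.05 ± 0.322 CPM in ME and 34.5 ± 3.85 CPM in WT. Its log2 fold change was -5.15 ± 0.17 in BN1, -2.70 ± 0.13 in MA9 and -5.01 ± 0.17 in ME (edgeR adjusted p of 7.6e-21, 1e-16 and 2.3e-20).

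Among 11 other RXR-family and partner receptors, 9 passed the filter. Against WT, 5 rose and 2 fell in BN1, and 3 rose and 3 fell in MA9 and in ME. Nr1h3, the liver X receptor alpha that senses oxysterols, had 7.06 ± 0.399 CPM in BN1, 0.837 ± 0.0912 CPM in MA9, 1.60 ± 0.425 CPM in ME and 2.02 ± 0.308 CPM in WT. It rose in BN1 by 1.80 ± 0.19 and fell in MA9 with a log2 fold change of -1.27 ± 0.26 (edgeR adjusted p of 1.7e-09 and 7.6e-05). Pparg, a regulator of lipid handling in macrophages and fat cells, had 5.03 ± 0.250 CPM in BN1, 0.430 ± 0.260 CPM in MA9 and 4.80 ± 0.424 CPM in WT, with 3 counts over ME. Its log2 fold change against WT was 0.07 ± 0.19 in BN1 (adjusted p = 0.76) and -3.48 ± 0.29 in MA9 (edgeR adjusted p = 9.7e-12), and the ME to WT ratio was 0.0103 with a counting interval of 0.00211 to 0.0304. Thrb, a thyroid hormone receptor, rose in all 3 leukemias, with 2.98 ± 0.759 CPM in BN1, 3.72 ± 0.307 CPM in MA9, 5.96 ± 0.651 CPM in ME and 0.448 ± 0.0544 CPM in WT (edgeR adjusted p of 1.8e-09, 1.1e-10 and 4.5e-13).

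Of 12 genes known to be induced by retinoic acid in other systems, 7 passed the filter. Against WT, 2 rose and 5 fell in BN1, 1 rose and 5 fell in MA9, and 2 rose and 4 fell in ME. Cd38, an NAD-consuming surface enzyme, had 0.149 ± 0.0747 CPM in BN1, 9.55 ± 0.0994 CPM in MA9, 36.0 ± 1.63 CPM in ME and 42.8 ± 4.19 CPM in WT. Its log2 fold change was -8.09 ± 0.17 in BN1 and -2.16 ± 0.09 in MA9 (edgeR adjusted p of 5e-25 and 3.6e-18). In ME it was -0.25 ± 0.08 (edgeR adjusted p = 0.0066), and -0.19 (adjusted p = 0.063) without WT replicate 1. Tgm2, a transglutaminase, and Cebpe, a transcription factor of late granulocyte maturation, fell in all 3 leukemias. Cebpe had 31.2 ± 2.94 CPM in BN1, 70.3 ± 4.79 CPM in MA9, 76.3 ± 4.58 CPM in ME and 145 ± 5.57 CPM in WT, with log2 fold changes of -2.21 ± 0.07, -1.04 ± 0.06 and -0.92 ± 0.06 (edgeR adjusted p of 9.6e-22, 8.1e-15 and 1.2e-13). Among the leukemias Cebpe was lowest in BN1, whereas the sum of neutrophil markers given above was highest there. Members of the list thus moved in both directions in each leukemia.

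**Figure D4:**
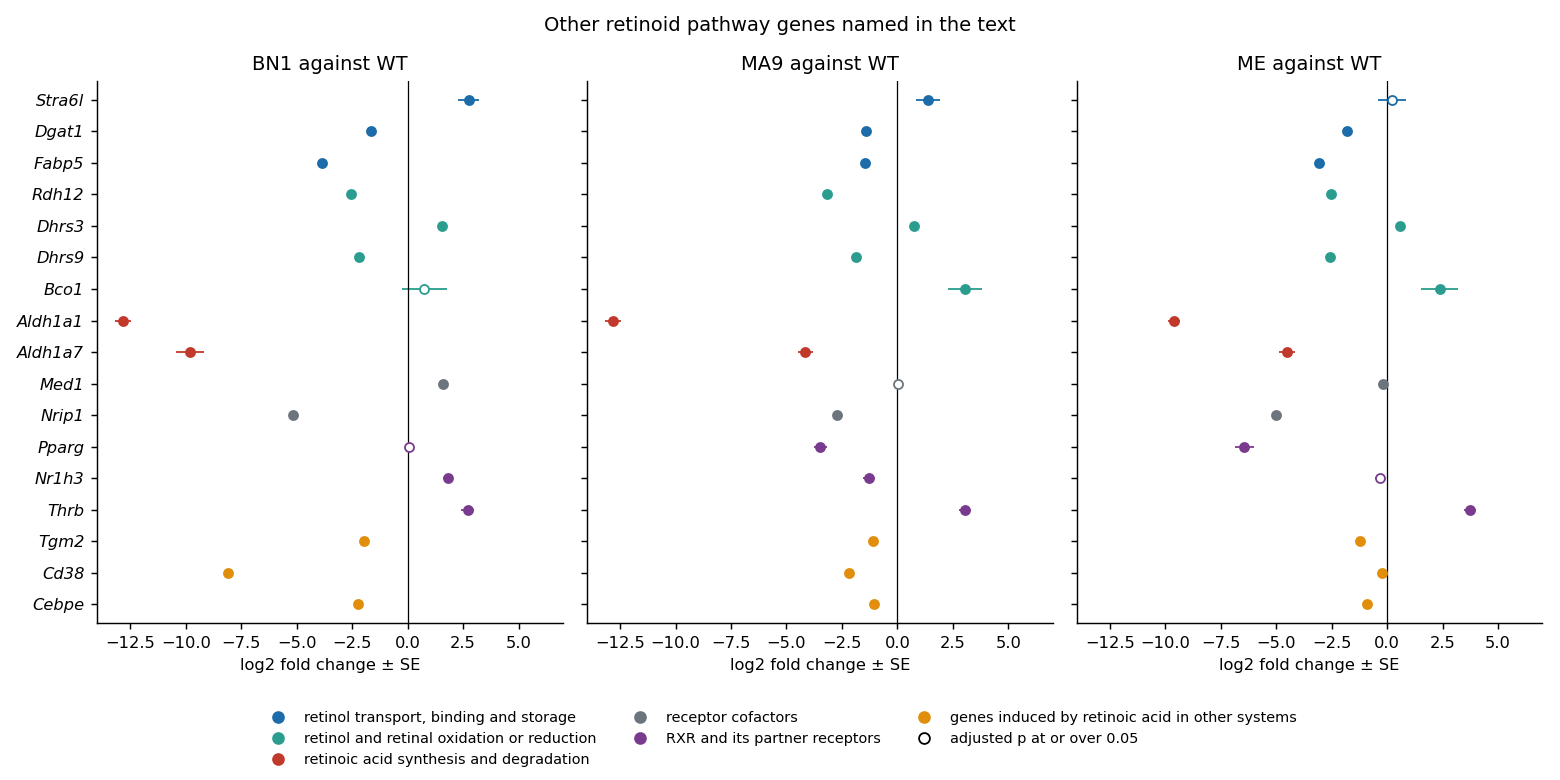
Log2 fold change ± SE against WT in BN1, MA9 and ME for the 17 other retinoid pathway genes that passed the filter and are named in the text, coloured by role, with open points where the edgeR adjusted p was 0.05 or more. Fitted values of genes without counts in a group depend on the prior count and are no bound. Dhrs3 and Thrb lie right of 0 in all 3 panels, and Dgat1, Rdh12, Dhrs9, Nrip1 and Cebpe lie left of it.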

How the data were processed

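Gene-level read counts for 35976 gene symbols in 12 libraries were used as the authors deposited them. The submitters' processing notes name HISAT2, featureCounts, DESeq2 and the mm10 build. Tool versions, the annotation release and the strand setting were not given in the sources used. Per the labels' protocols, RNA from sorted cells went into stranded polyadenylated TruSeq libraries. Groups followed the labels, 3 libraries each.

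Counts were filtered with filterByExpr (15334 genes kept), scaled with TMM (factors 0.928 to 1.051) and fitted in edgeR as 1 robust quasi-likelihood model over all 12 libraries, with Benjamini-Hochberg adjusted p under 0.05 as the call. The 10 genes and the 6 lists were chosen with earlier results of these data known. From each list, up to 4 called genes per direction and comparison were eligible to be named by size of the change, and for each of the 10 genes the 5 most correlated genes. A few of the eligible genes are left out. Gene places and exon lengths came from GENCODE for GRCm38 and promoters from RefSeq for GRCm38.p6. No 2 libraries of a group agreed within sampling noise. Intervals and floors cover counting error only. Alternatives were DESeq2, limma-voom, other scalings and filters, a 2-fold minimum, fits on the compared groups alone, a replicate block and leaving out each library. Tools were edgeR 4.0.16 with limma 3.58.1 and, as an alternative, DESeq2 1.42.0 in R 4.3.3. Tables and plots were made in Python 3.11.15 by means of matplotlib 3.10.9, numpy 2.4.6 and pandas 2.3.3.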

Additional observations from a re-analysis of the deposited data

How the results depend on the processing

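Counts of called genes, over all genes and over the 48 other pathway genes, stayed within 1.5 times the reported ones in 96 of 96 recomputations other than a required 2-fold change. With that requirement, 5786 genes were called for BN1 against WT, 5929 for MA9 against WT, 5795 for ME against WT, 3649 for BN1 against MA9, 3391 for BN1 against ME and 1907 for MA9 against ME, and of the pathway genes 21, 23, 17, 16, 13 and 8 in that order; the requirement itself leaves out smaller changes. Leaving out single libraries gave 11940 to 12522, 12091 to 12626, 11915 to 12431, 9859 to 10602, 9356 to 10094 and 5523 to 6425 genes. Same-numbered libraries of different groups did not deviate together (r of -0.118 to 0.112, and 6 of 18 closest to their own number), so the numbers were not taken as pairs. With the replicate number as a block, 12042, 12162, 12014, 10195, 9743 and 5967 genes were called. In all, 769 fold changes of the retinoid genes that passed the filter were recomputed. Of these, 760 kept their side of the threshold, 2 lost the call and 7 gained one. None that was called, before or after, changed direction. Changes of direction among values called in neither fit were not counted. Rara in MA9 against ME gained a call with no filter (0.20 on the log2 scale), without MA9 replicate 2 (0.25), without ME replicate 1 (0.26) and without ME replicate 2 (0.27). Depth limits what can be said of Crabp1, Aldh1a2, Cyp26b1 and Rarb, which had at most 82 counts each over all libraries.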
